A study of Mus musculus with 57 samples.

Results

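The forkhead genes encode transcription factors that share a winged-helix DNA-binding domain. The 36 members described here are the autosomal forkhead genes of the mouse RefSeq annotation other than the Foxo genes, out of 24963 autosomal genes measured in the same way, by a rule that uses no measured value. The family was picked for description with earlier results of these data known. The question was how 3 histone H3 marks at their promoters differed between brain cortex and gastrocnemius, a calf muscle. Chromatin immunoprecipitation sequencing (ChIP-seq) of H3K4me3, H3K27ac and H3K27me3 gave 57 libraries, for each mark 9 of cortex and 10 of gastrocnemius. All mice were PSAPP, a transgenic Alzheimer's disease model that makes mutated human presenilin 1 and a mutant chimeric mouse/human amyloid precursor protein, and were killed at 13 months after being housed singly on a modified AIN-93 diet from 6 months of age. There was no non-transgenic group, so every value belongs to transgenic mice, and the promoters driving the transgenes are not given in the sources used here. By the mouse numbers in the deposited names, for each mark each library of a tissue came from a different mouse, each mouse gave 1 library of every mark in a tissue, and 9 mice gave both tissues.

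H3K4me3 marks the start of active and poised genes, H3K27ac marks active promoters and enhancers, and H3K27me3 is laid down by Polycomb repressive complex 2 over silenced developmental genes. Promoters that carry H3K4me3 and H3K27me3 together are called bivalent, a state best known from developmental regulators in stem cells. Forkhead factors include widely expressed regulators such as Foxk1, Foxk2, Foxj3 and Foxp1, and regulators of single lineages such as Foxa2 in endoderm, Foxc1 and Foxc2 in mesenchyme and vessels, Foxn1 in thymic epithelium and Foxj1 in cells with motile cilia. In a bulk tissue, fewer cells carrying a mark and less of the mark per cell cannot be told apart, and the marks of 1 promoter may lie in different cells.

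RefSeq promoter sequences (GRCm38.p6, 250 bases before to 50 after a transcript start) were available for 23 of the 36 members. CpG dinucleotides are printed in capitals for 5 members that stand for the mark patterns met below. Foxj2 (chr6:122819934-122820233, plus strand) carried both active marks and no H3K27me3 peak in either tissue, Foxc1 (chr13:31806396-31806695, plus strand) and Foxf2 (chr13:31625566-31625865, plus strand) carried all 3 marks in every cortex library and differed between the tissues in opposite directions for H3K4me3, and Foxi1 (chr11:34208040-34208339, minus strand) and Foxn1 (chr11:78386559-78386858, minus strand) carried H3K27me3 alone.
Foxj2: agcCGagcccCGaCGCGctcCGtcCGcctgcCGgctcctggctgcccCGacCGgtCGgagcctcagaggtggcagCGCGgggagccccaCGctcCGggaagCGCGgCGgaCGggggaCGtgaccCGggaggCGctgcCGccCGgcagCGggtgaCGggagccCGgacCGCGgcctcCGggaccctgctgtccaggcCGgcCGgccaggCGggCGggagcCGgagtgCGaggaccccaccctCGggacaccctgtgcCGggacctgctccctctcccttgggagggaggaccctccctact
Foxc1: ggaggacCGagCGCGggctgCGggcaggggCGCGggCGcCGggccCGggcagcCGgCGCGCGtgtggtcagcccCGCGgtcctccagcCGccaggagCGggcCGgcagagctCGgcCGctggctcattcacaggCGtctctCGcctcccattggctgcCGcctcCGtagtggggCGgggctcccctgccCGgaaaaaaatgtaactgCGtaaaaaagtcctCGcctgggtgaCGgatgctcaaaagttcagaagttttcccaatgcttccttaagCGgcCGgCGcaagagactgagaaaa
Foxf2: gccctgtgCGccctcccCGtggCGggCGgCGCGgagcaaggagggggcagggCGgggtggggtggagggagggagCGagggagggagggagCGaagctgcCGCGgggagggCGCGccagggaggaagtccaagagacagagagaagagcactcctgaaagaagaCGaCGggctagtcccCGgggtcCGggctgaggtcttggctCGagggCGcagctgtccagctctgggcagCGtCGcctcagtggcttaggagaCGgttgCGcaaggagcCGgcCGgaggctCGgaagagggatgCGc
Foxi1: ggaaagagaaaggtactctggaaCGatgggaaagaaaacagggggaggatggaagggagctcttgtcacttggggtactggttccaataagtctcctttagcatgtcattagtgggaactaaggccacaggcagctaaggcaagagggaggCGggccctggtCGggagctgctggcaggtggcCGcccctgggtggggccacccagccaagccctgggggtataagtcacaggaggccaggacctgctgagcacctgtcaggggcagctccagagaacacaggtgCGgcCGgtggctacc
Foxn1: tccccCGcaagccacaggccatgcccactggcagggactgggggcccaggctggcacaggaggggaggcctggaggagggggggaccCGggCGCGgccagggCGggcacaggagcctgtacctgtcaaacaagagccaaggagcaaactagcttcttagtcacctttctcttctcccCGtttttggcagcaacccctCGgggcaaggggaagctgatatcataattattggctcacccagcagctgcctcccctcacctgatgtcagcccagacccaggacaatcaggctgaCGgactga

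The Foxj2 sequence held 37 CpG, Foxc1 32 and Foxf2 27, whereas Foxi1 held 6 and Foxn1 8. Low CpG was not limited to members with H3K27me3 alone: Foxb2 and Foxe3 held 10 each and carried H3K4me3 with H3K27me3 in every library. The median over the 23 members was 22 CpG, against 7 over 31396 autosomal promoters, and 47.5% of those promoters held no more CpG than Foxi1. With the promoter nearest to the gene start taken for each member, the extremes were Foxk2 with 59 CpG and Foxi2 with 5, and a further promoter of Foxp1 also held 5. The forkhead core motif TGTTTAC, or GTAAACA on the other strand, was found in 3.71% of autosomal promoters and in 1 member, Foxa1. A match to these letters is a description and not a binding site.

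Levels are given as RPM, the reads of called peaks that fall within 1 kb of the gene start per 1000000 reads in autosomal peaks of that library, with each peak's reads shared evenly along it. A value of 0 means that no peak was called, since the files hold no reads outside peaks. Autosomal peaks held 9025744 to 18622389 reads per library for H3K4me3, 3903965 to 27042958 for H3K27ac and 2994110 to 18236388 for H3K27me3. The tissue labels matched their markers: the summed H3K4me3 over 9 neuron genes was 174 to 243 RPM in cortex and 19.7 to 31.0 in gastrocnemius, with Snap25, Rbfox3, Camk2a and Gad1 at 0 in muscle, and the sum over 8 muscle fibre genes was 55.2 to 92.1 RPM in cortex and 136 to 182 in gastrocnemius, with Ckm, Myh4, Myh1, Tnnt3 and Tnni2 at 0 in cortex. Not every gene of the muscle list followed the sum. The 2 muscle fibre genes with a peak in all 19 libraries were both called higher in cortex by the peak-read test described below. That call was made for 59.5% of all fitted genes. The file names of the tissues follow different schemes, and a difference in processing between them cannot be told apart from tissue.

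**Figure D1:**
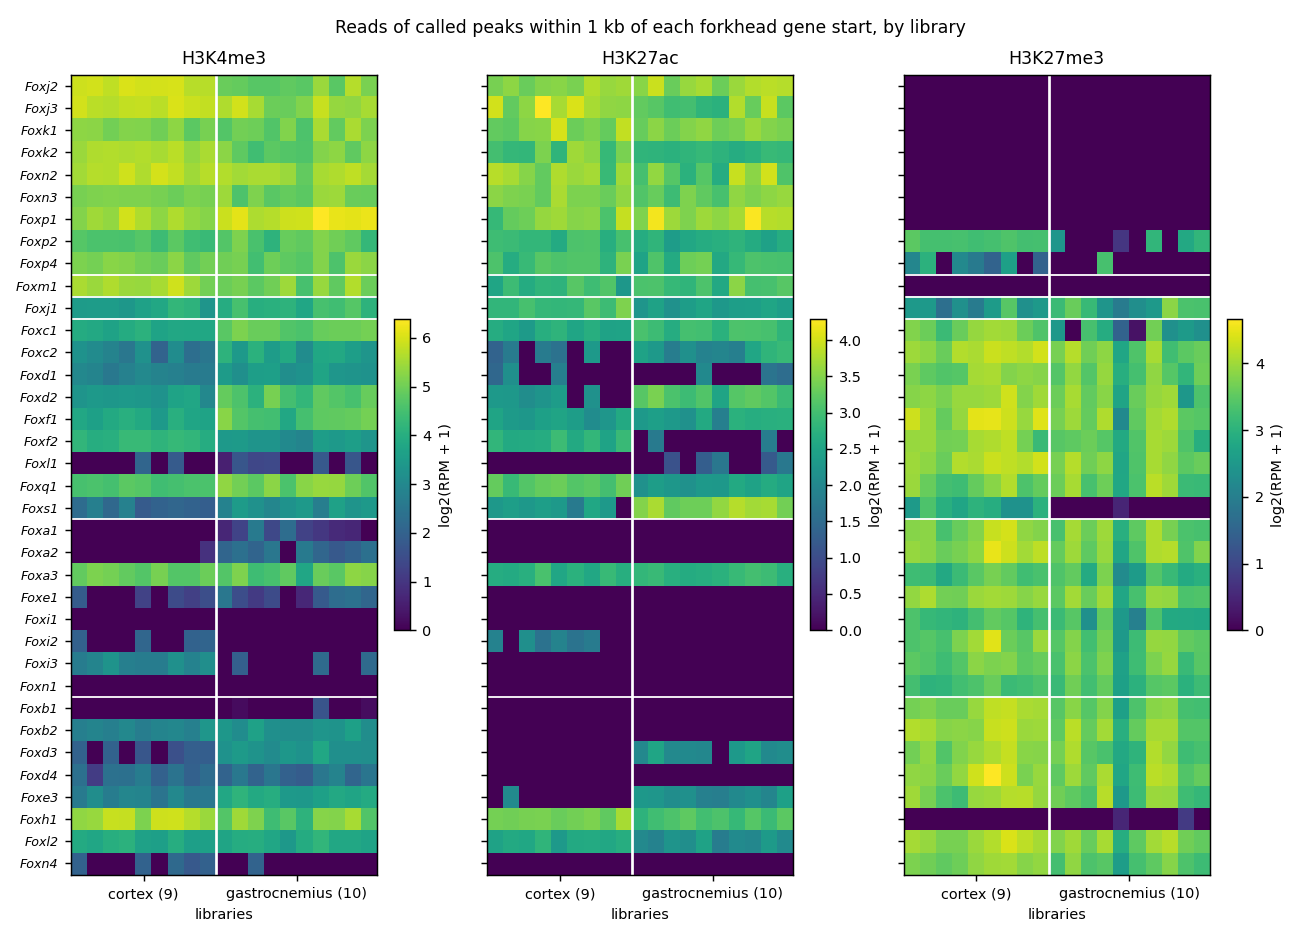
Reads of called peaks within 1 kb of each of the 36 forkhead gene starts, as log2(RPM + 1) by colour, with 1 column per library and cortex left of the white line; rows are grouped by known role. The top rows (Foxj2 to Foxp1) have H3K4me3 and H3K27ac and no H3K27me3 in all 19 libraries, and most rows from Foxc1 down have H3K27me3 in both tissues.

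Most forkhead genes had H3K27me3 within 1 kb of the start in both adult tissues. A peak of H3K27me3 lay within 1 kb of the start in every cortex library for 26 of 36 members and in every gastrocnemius library for 23, while 8 members had none in any library. These were 72.2% and 63.9% of the members, against 13.4% and 12.8% of all 24963 genes. H3K4me3 was present in every library of cortex for 26 members and of gastrocnemius for 26 (72.2% each, against 56.5% and 55.0% of all genes), and H3K27ac for 18 and 21 (50% and 58.3%, against 57.7% and 56.2%). Among genes with a peak in any library, the shares for H3K4me3 were 76.5% of members in each tissue against 85.3% and 83.1% of genes. Both H3K4me3 and H3K27me3 were found in every cortex sample at 16 members (44.4%), against 6.60% of all autosomal genes, and in every gastrocnemius sample at 13 members (36.1%), against 6.38%. The 12 members with both marks in every sample of both tissues were Foxa3, Foxb2, Foxc2, Foxd1, Foxd2, Foxd4, Foxe3, Foxf1, Foxf2, Foxj1, Foxl2 and Foxq1. Both marks lay within 1 kb of these starts, but not always over the start itself. An H3K27me3 peak covered the Foxj1 start in 1 of 9 cortex and 6 of 10 gastrocnemius libraries. H3K4me3 peaks covered the Foxd4 start in 4 of 9 and 7 of 10, and the Foxa3 start in 6 of 9 and 10 of 10.

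The tissues were compared by presence of a peak (Fisher's exact test over libraries) and by peak reads at genes with a peak in all 19 libraries (edgeR's quasi-likelihood test), both adjusted over all genes tested and called below 0.1. For H3K4me3 peak reads, 6 of the 25 members fitted were higher in cortex and 11 higher in gastrocnemius, against 59.5% and 12.3% of all 12998 fitted genes. The median log2 ratio of cortex over gastrocnemius was −0.13 over the members and 0.32 over all fitted genes. That general shift depended on the scaling: it was 0.03 with TMM factors. Under these, 4 of the 25 members were called higher in cortex and 15 in gastrocnemius, against 3733 and 3320 of the 12998 fitted genes. The share of all calls that were higher in cortex went from 82.8% to 52.9%.

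The 9 broad regulators had H3K4me3 and H3K27ac in all 19 libraries, with H3K4me3 medians from 22.9 RPM (Foxp2) to 61.2 RPM (Foxj2) in cortex. Foxj2, a widely expressed activator, had 50.9 to 64.0 RPM in cortex (median 61.2) and 25.5 to 50.3 in gastrocnemius (median 28.2). No muscle library reached the lowest cortex library, and the log2 ratio was 0.89 ± 0.12 (SE, edgeR adjusted p = 5.63e-07). Foxk2, a nuclear factor that acts in metabolism and autophagy, had 40.0 to 52.2 RPM in cortex and 20.8 to 38.8 in gastrocnemius, without overlap (log2 ratio 0.64 ± 0.12, edgeR adjusted p = 4.24e-05). Peak width moved with both values: the H3K4me3 peak over the Foxj2 start had a median width of 3.8 kb in cortex and 9.5 kb in gastrocnemius, and that of Foxk2 3.6 and 5.7 kb. Counting whole peaks instead, Foxj2 had a log2 ratio of −0.19 and was called higher in gastrocnemius, and Foxk2 had one of 0.13.

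Foxp1, a repressor known from neurons, lymphocytes and muscle, went the other way. It had 36.03 to 60.8 RPM in cortex (median 40.1) and 47.3 to 83 in gastrocnemius (median 64.8), the highest median of the family, and the ranges overlapped. It was called higher in gastrocnemius for H3K4me3 (edgeR adjusted p = 2.48e-04), and for H3K27ac it was 1.30-fold higher there (edgeR adjusted p = 0.0354). With whole peaks counted Foxp1 was not called for H3K4me3 and was called higher in cortex for H3K27ac, and with every curated start measured it was not called for H3K27ac. RefSeq gives Foxp1 4 curated starts, and the mark differed among them. At chr6:99028298 H3K4me3 had a median of 31.2 RPM in cortex and 25.7 in gastrocnemius, at chr6:99266515 3.54 and 7.22, and at chr6:99435345 no library had an H3K4me3 peak.

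Foxj3 and Foxm1 were called higher in cortex for H3K4me3, and neither call held with TMM factors. Foxj3 had medians of 55.1 RPM in cortex and 43.1 in gastrocnemius (log2 ratio 0.37 ± 0.12, edgeR adjusted p = 0.0101). Foxm1, a driver of the G2 and M phases of the cell cycle, had medians of 42.5 and 30.6 RPM (log2 ratio 0.42 ± 0.13, edgeR adjusted p = 0.00761). The Foxm1 start lies 83 bp from that of Rhno1, so the 2 genes share the measured window. Of 15 genes of the cell division programme, all had H3K4me3 in every library, and 4 were called higher in cortex and 1 in gastrocnemius, against 59.5% and 12.3% of all fitted genes. Their median log2 ratio was 0.12, against 0.32 over all fitted genes. Foxk1, Foxn2, Foxn3, Foxp2 and Foxp4 were not called for H3K4me3, with medians between 22.9 and 50.03 RPM in cortex and between 27.5 and 46.4 in gastrocnemius.

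**Figure D2:**
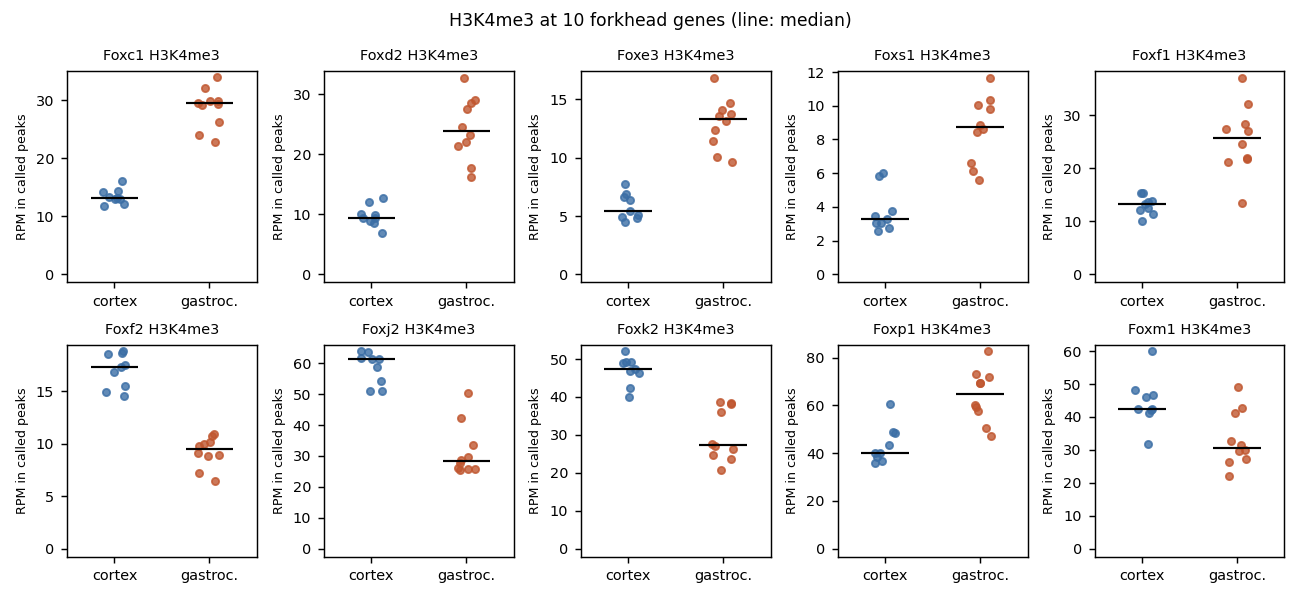
H3K4me3 in RPM of called peaks (vertical axis, separate for each panel) at 10 forkhead genes, with 1 point per library, 9 of cortex and 10 of gastrocnemius, and a line at the median. Foxc1, Foxd2 and Foxe3 are higher in every muscle library than in any cortex library, and Foxf2, Foxj2 and Foxk2 are higher in every cortex library.

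Of the mesenchyme and vessel regulators, most had more H3K4me3 in muscle. Foxd2 had 6.88 to 12.7 RPM in cortex and 16.2 to 32.6 in gastrocnemius, the largest change among the 25 members with a peak in all 19 libraries (2.49-fold higher in gastrocnemius, log2 ratio −1.32 ± 0.13, edgeR adjusted p = 1.79e-09). Foxc1 had 11.9 to 16.1 RPM in cortex and 22.8 to 34.0 in gastrocnemius, 2.13-fold higher there (edgeR adjusted p = 7.75e-11). Its peak had a median width of 16.8 kb in cortex and 8.1 kb in gastrocnemius, and counting whole peaks moved the log2 ratio from −1.09 to −0.16. For these genes and Foxe3 the groups did not overlap. Foxs1, a forkhead gene of pericytes and neural crest derivatives, was 2.33-fold higher in gastrocnemius, Foxe3, a lens regulator, 2.23-fold, Foxc2, needed for lymphatic vessels, 1.98-fold, and Foxf1, needed for lung and gut mesenchyme, 1.95-fold (edgeR adjusted p at most 2.96e-05). With whole peaks counted the log2 ratios of Foxc2 and Foxf1 were −0.61 and −0.57, and that of Foxs1 went from −1.22 to −1.93. An H3K4me3 peak covered the Foxs1 start in 3 of 9 cortex libraries, with a median width of 3.2 kb. In gastrocnemius it did so in 10 of 10, with a median of 10.2 kb. Foxb2, Foxd1, Foxj1 and Foxq1 were also called higher in gastrocnemius, with edgeR adjusted p from 1.53e-05 to 0.00297, but Foxd1 and Foxq1 were not called with whole peaks counted. Markers of vessels moved with these values: of 11 endothelium and mural cell genes, 10 were fitted and 9 called higher in gastrocnemius for H3K4me3, none in cortex, and their summed level was 77.0 to 102 RPM in cortex and 148 to 208 in gastrocnemius. The sum over 6 fibroblast genes was 8.28 to 25.9 RPM in cortex, with Lum and Col3a1 at 0 there, and 42.7 to 64.2 in gastrocnemius. The part of these cells in the forkhead differences was not tested.

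Foxf2, which acts in brain pericytes and craniofacial mesenchyme, was the exception in its group. It had 14.6 to 18.8 RPM of H3K4me3 in cortex and 6.44 to 10.9 in gastrocnemius, without overlap (1.84-fold higher in cortex, log2 ratio 0.88, edgeR adjusted p = 7.97e-08). Its peak had a median width of 9 kb in cortex and 3.2 kb in gastrocnemius, and the log2 ratio was 1.42 with a 2.5 kb window and 2.20 with whole peaks counted. H3K27ac lay at Foxf2 in all 9 cortex libraries, at 4.61 to 6.69 RPM, and in 2 of 10 gastrocnemius libraries, at 2.36 and 2.54 RPM (Fisher's exact test, adjusted p = 0.00723). Its neighbour Foxc1 lies 181 kb away and Foxq1 67.6 kb away, and no peak of any mark covered the starts of 2 of these 3 genes in any library. Foxh1, a mediator of Nodal signalling, was called higher in cortex for H3K4me3 (log2 ratio 0.65 ± 0.16, edgeR adjusted p = 0.00106), with 34.2 to 59.5 RPM in cortex and 16.6 to 45.8 in gastrocnemius. Its gene record starts 29 bp from that of Ppp1r16a, and at the curated Foxh1 transcript start H3K4me3 had a median of 8.72 RPM in cortex and 7.80 in gastrocnemius.

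In all, 11 of the 36 members have the start of another gene within 2 kb. Besides Foxm1 and Foxh1 these include Foxa3, 838 bp from Sympk, the only endoderm and epithelium member with H3K4me3 and H3K27ac in every library of both tissues. Foxa3 had medians of 28.0 RPM of H3K4me3 in cortex and 26.9 in gastrocnemius and was not called. For Foxn3, whose gene record starts 174 bp from Gm26839, the curated start at chr12:99450074 had no H3K4me3 peak in any library, and the H3K4me3 described above lies at the gene record's start.

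By presence of H3K4me3, 1 member was called more often in cortex and 2 in gastrocnemius, against 5.1% and 3.58% of 16515 genes tested. Foxi3, a regulator of ectodermal appendages, had a peak in 9 of 9 cortex libraries, at 5.39 to 8.77 RPM, and in 3 of 10 of gastrocnemius (Fisher's exact test, adjusted p = 0.0366). Foxa1 and Foxa2, pioneer factors of endoderm, had peaks in 0 and 1 of 9 cortex libraries and in 9 and 9 of 10 gastrocnemius libraries (Fisher's exact test, adjusted p = 0.00192 and 0.0146). Their levels were low, with medians of 1.22 and 3.28 RPM in gastrocnemius. At the curated Foxa1 start, chr12:57546111, 8 of 9 cortex libraries did have a peak, so the absence in cortex held for the gene record's start and not for that one. Foxd3 (6 of 9 and 10 of 10), Foxe1 (5 and 9), Foxl1 (2 and 6), Foxn4 (5 and 1), Foxi2 (4 and 0) and Foxb1 (0 and 3) were not called. Of these, Foxe1 acts in thyroid, Foxl1 in gut mesenchyme, Foxn4 in retinal and spinal interneurons and Foxb1 in the hypothalamus. Although not called by presence, Foxd3 had 0 to 3.04 RPM in cortex and 7.53 to 13.0 in gastrocnemius, without overlap. Foxi1, the regulator of proton-secreting epithelial cells, and Foxn1 had no H3K4me3 peak in any library. With the libraries of each mouse paired (replicate block, exact sign test over 9 mice), 0 members were called for H3K4me3 in either direction. The sign test counts only mice whose tissues differ in presence, so 9 mice give it little power after adjustment over all genes. Its lost calls do not show that the tissues were alike.

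For H3K27ac, 7 of 17 members fitted were called higher in cortex and 2 in gastrocnemius, against 49.3% and 8.52% of 12679 genes. The median over all fitted genes was 0.28 and over the members 0.14. With TMM factors the median of all genes was 0.02. Then 4 of the 17 members were called higher in cortex and 7 in gastrocnemius, against 3225 and 2951 of the 12679 fitted genes. The share of all calls higher in cortex went from 85.3% to 52.2%. Foxq1, a regulator of hair shaft and epithelial genes, had 6.41 to 9.25 RPM in cortex and 3.51 to 5.24 in gastrocnemius, without overlap (1.90-fold higher in cortex, edgeR adjusted p = 8.55e-08), while its median H3K4me3 was 22.8 RPM in cortex and 34.6 in gastrocnemius. Foxl2, the ovarian forkhead factor, had medians of 5.06 and 3.16 RPM (log2 ratio 0.59 ± 0.12, edgeR adjusted p = 3.91e-04), and Foxl2os starts 297 bp from it. The Foxl2 ratio was 1.21 with a 2.5 kb window and 1.26 with whole peaks counted. Foxj3, Foxk2 and Foxh1 were called higher in cortex with log2 ratios of 0.56, 0.45 and 0.41, and Foxk2 and Foxh1 were not called with TMM factors. Foxp2, with medians of 6.62 RPM in cortex and 5.29 in gastrocnemius, was also called higher in cortex (edgeR adjusted p = 0.015) and was not called with TMM factors. Foxc1 was 1.34-fold higher in gastrocnemius (edgeR adjusted p = 0.00171). With a 2.5 kb window Foxc1 had a log2 ratio of −0.02 and was not called. With whole peaks counted the ratios of Foxj3, Foxk2, Foxh1, Foxc1 and Foxp1 changed sign, and Foxj3 (−0.50) and Foxh1 (−0.70) were then called higher in gastrocnemius and Foxp1 (0.53) in cortex.

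By presence of H3K27ac, 2 members were called more often in each tissue, against 9.24% of 18508 genes in cortex and 4.54% in gastrocnemius. In cortex these were Foxf2 and Foxi2, a regulator in ectoderm, with a peak in 6 of 9 cortex libraries and in 0 of 10 of gastrocnemius (Fisher's exact test, adjusted p = 0.0261). In gastrocnemius they were Foxd3, a neural crest factor, with 0 of 9 and 9 of 10, and Foxe3, with 1 of 9 and 10 of 10 (Fisher's exact test, adjusted p = 0.00144 for each). With mice paired, 0 members were called more often in cortex and 2 in gastrocnemius. Foxc2 (5 of 9 and 10 of 10), Foxd2 (6 and 10), Foxl1 (0 and 5), Foxd1 (3 and 3) and Foxs1 (8 and 10) were not called. Still, the H3K27ac level at Foxd2 was 0 to 4.20 RPM in cortex and 4.68 to 9.73 in gastrocnemius, without overlap. Foxa1, Foxa2, Foxb1, Foxb2, Foxd4, Foxe1, Foxi1, Foxi3, Foxn1 and Foxn4 had no H3K27ac peak in any library.

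**Figure D3:**
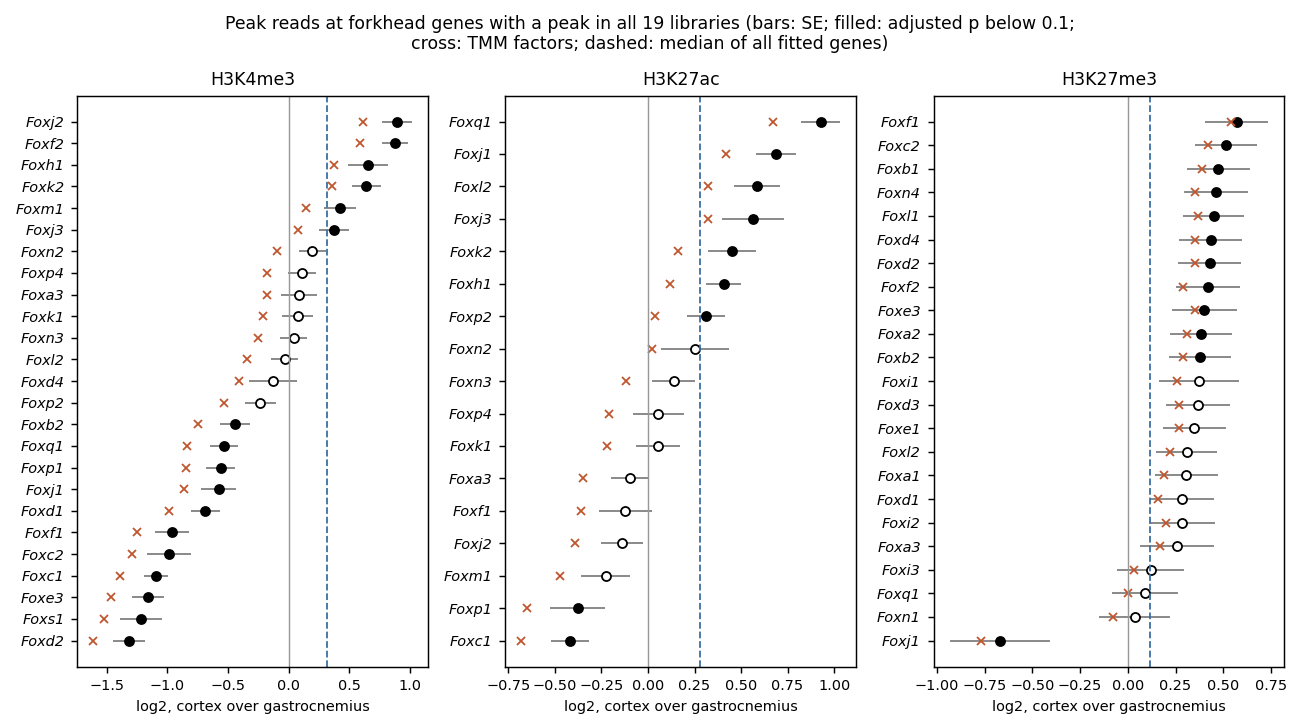
Log2 ratio of cortex over gastrocnemius in peak reads for each member with a peak in all 19 libraries (point, with SE as bars; filled where the edgeR adjusted p is below 0.1), the same ratio with TMM factors (cross), and the median of all fitted genes (dashed line). The H3K4me3 ratios run from −1.32 (Foxd2) to 0.89 (Foxj2), and Foxj1 stands apart on the negative side for H3K27me3.

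H3K27me3 at members with a peak in all 19 libraries was more often called higher in cortex. Of 23 members fitted, 11 were called higher in cortex and 1 in gastrocnemius, against 16% and 6.1% of 1999 genes, and the median log2 ratio was 0.37 over the members and 0.11 over all fitted genes. Foxf1 had 10.8 to 21.6 RPM in cortex (median 18.9) and 3.66 to 16.3 in gastrocnemius (median 11.5), with overlapping ranges (log2 ratio 0.57 ± 0.17, edgeR adjusted p = 0.00889). Foxc2, Foxb1, Foxn4, Foxl1 and Foxd4 had log2 ratios of 0.51, 0.47, 0.46, 0.45 and 0.43, with edgeR adjusted p from 0.0172 to 0.0555, and Foxa2, Foxb2, Foxd2, Foxe3 and Foxf2 were also called. With whole peaks counted the ratios of Foxf1, Foxc2 and Foxl1 were −0.06, −0.11 and −0.09, that of Foxn4 was 0.10, and none of these genes was called. These calls changed with the libraries used. Without the libraries that carry a run number in their names (2 of cortex and 4 of gastrocnemius) no member was called higher in cortex and the median over all genes was −0.12. Of 2046 genes then fitted, 93 were called higher in cortex and 364 in gastrocnemius, so most calls over all genes turned as well. Without the shallowest and deepest library of each tissue 3 members were called higher in cortex. Of 2124 genes then fitted, 219 were called higher in cortex and 198 in gastrocnemius. Foxa1, Foxa3, Foxd1, Foxd3, Foxe1, Foxi1, Foxi2, Foxi3, Foxl2, Foxn1 and Foxq1 were not called.

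Of the members with an H3K27me3 peak over the start itself in every library of a tissue, 22 in cortex had median widths from 5.6 kb (Foxa3) to 44 kb (Foxa2), with a median of 26.3 kb, and 17 in gastrocnemius from 5.8 kb (Foxa3) to 36.2 kb (Foxl1), with a median of 18.5 kb. Over all 2652 autosomal genes covered at the start in the same way in cortex the median was 9.2 kb (quartiles 6.2 and 15 kb), and over 2355 in gastrocnemius 11.1 kb (7.4 and 18 kb). The difference was not tested. The starts of Foxc2 and Foxl1 on chromosome 8, 11.5 kb apart, lay under a single peak in 9 of 9 cortex and 9 of 10 gastrocnemius libraries, so their H3K27me3 values are not independent. Foxf1, 31.8 kb from Foxc2, shared a peak with it in no library. Foxd2 and Foxe3, 17.2 kb apart, shared a peak in 2 cortex libraries and in no gastrocnemius library.

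**Figure D4:**
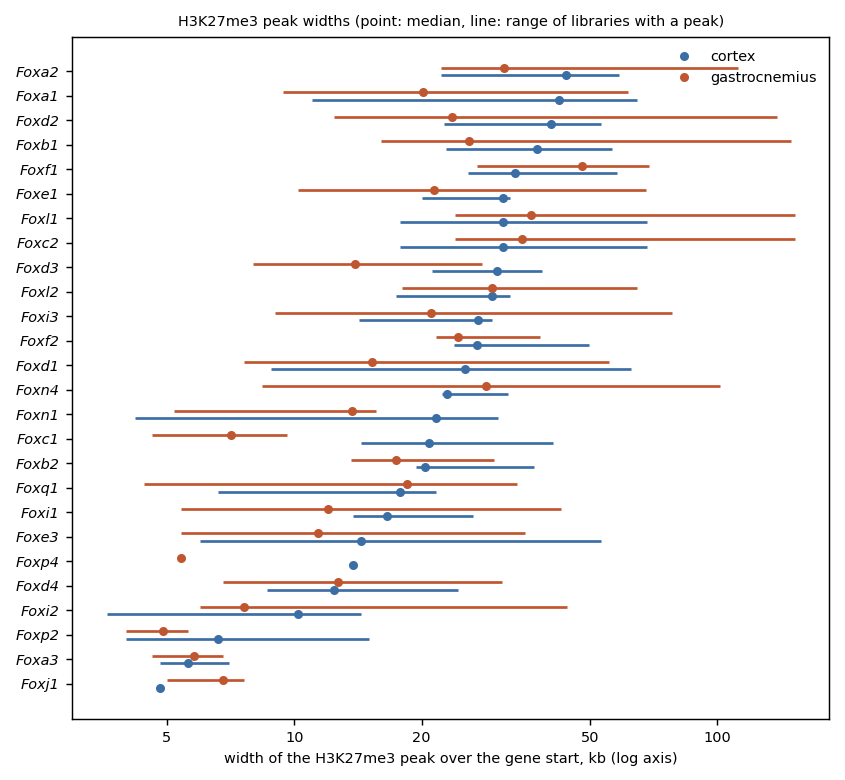
Width in kb (log axis) of the H3K27me3 peak over each forkhead gene start, as the median (point) and the range (line) of the libraries with such a peak, for cortex and gastrocnemius. Foxa3 has the narrowest peaks among members covered in every library, with medians of 5.6 and 5.8 kb, and the Foxa2 median in cortex is 44 kb.

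By presence of H3K27me3, 2 members were called more often in cortex and none in gastrocnemius by Fisher's exact test, against 10.1% and 13.4% of 10952 genes. Foxs1 had a peak in 9 of 9 cortex libraries, at 4.19 to 9.36 RPM, and in 1 of 10 gastrocnemius libraries, at 0.41 RPM (Fisher's exact test, adjusted p = 0.00133). The muscle level at Foxs1 was thus under the lowest cortex value, and the active marks went the other way: H3K27ac was 8.496 to 13.1 RPM in gastrocnemius and 2.43 to 4.91 in the 8 cortex libraries with a peak, and the cortex library without one was replicate 09, the shallowest of its group. The H3K27ac peak over the Foxs1 start had a median width of 42.2 kb in gastrocnemius and 11.7 kb in cortex. It was thus not limited to this promoter. Foxp4 had a peak in 7 of 9 and 1 of 10 libraries (Fisher's exact test, adjusted p = 0.0303), and with mice paired 1 member was called. The Foxp4 peaks mostly lay beside the start, with a cortex median of 2.81 RPM. A peak covered the start itself in only 1 cortex and 1 gastrocnemius library. Foxp2, a regulator known from neural circuits for vocalisation, had H3K27me3 in 9 of 9 cortex libraries, at 8.43 to 10.2 RPM, and in 5 of 10 of gastrocnemius, and was not called (Fisher's exact test, adjusted p = 0.118). At its downstream curated start, chr6:15185506, H3K27me3 lay in 9 of 9 cortex and 1 of 10 gastrocnemius libraries, and H3K4me3 had a median of 6.98 RPM in cortex and 16.4 in gastrocnemius. Foxc1 had H3K27me3 in 9 of 9 and 9 of 10 libraries, with medians of 11.4 and 4.35 RPM, and Foxh1 in 0 and 2. Foxj2, Foxj3, Foxk1, Foxk2, Foxm1, Foxn2, Foxn3 and Foxp1 had no H3K27me3 peak in any library.

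**Figure D5:**
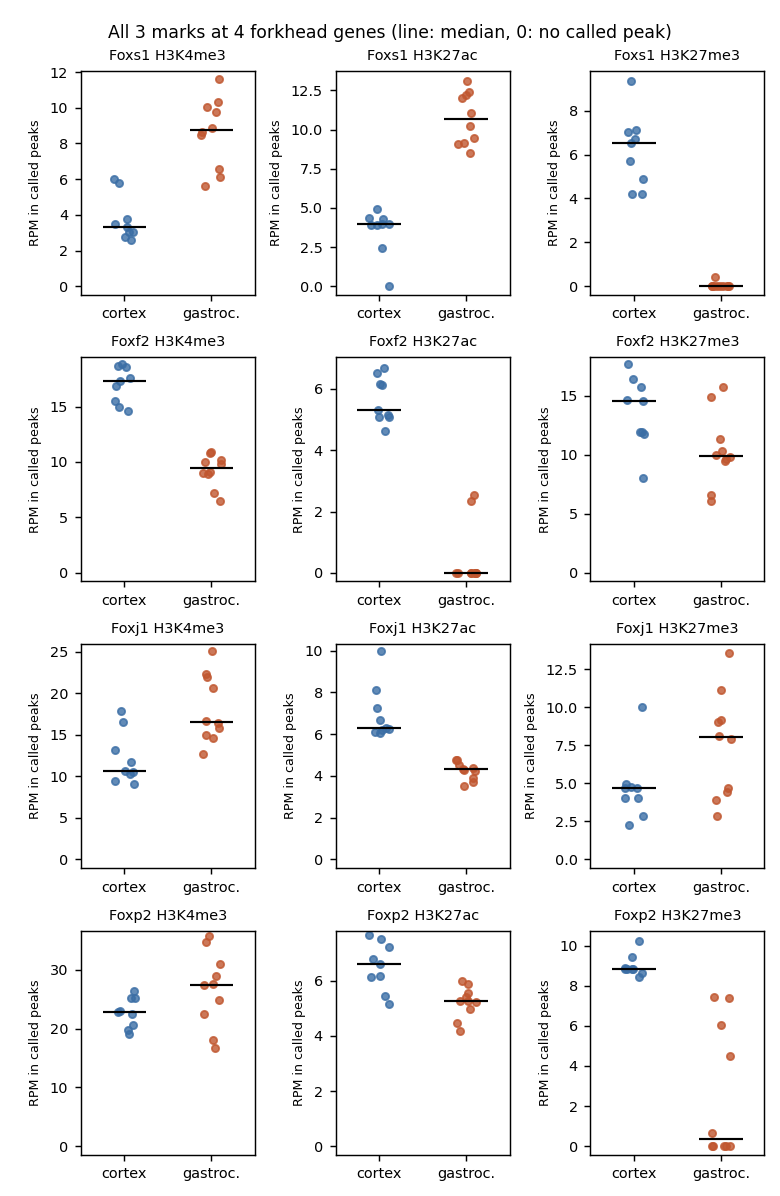
H3K4me3, H3K27ac and H3K27me3 in RPM of called peaks at Foxs1, Foxf2, Foxj1 and Foxp2, with 1 point per library, a line at the median, and 0 where no peak was called. At Foxs1 the muscle medians are higher for both active marks, with overlapping ranges for H3K4me3 only, and 9 of 10 muscle libraries have no H3K27me3 peak, and at Foxf2 8 of 10 muscle libraries have no H3K27ac peak.

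Foxj1, the regulator of motile cilia, was the only member called with more H3K27me3 in muscle. It had 2.25 to 10.04 RPM in cortex (median 4.68) and 2.84 to 13.6 in gastrocnemius (median 8.02), with wide overlap (log2 ratio −0.67 ± 0.26, edgeR adjusted p = 0.0646). At the curated Foxj1 start the medians were 5.43 and 8.02 RPM, and Foxj1 was not called with every curated start, equally many top-scoring peaks, whole peaks counted, no peak taken as 0 reads, or limma. H3K27ac at Foxj1 was 6.07 to 10 RPM in cortex and 3.52 to 4.76 in gastrocnemius, without overlap (1.61-fold higher in cortex, log2 ratio 0.69, and 1.62 with whole peaks counted, edgeR adjusted p = 1.08e-05), whereas H3K4me3 was lower in cortex, with medians of 10.6 and 16.6 RPM. Of 18 genes of the motile cilium programme, 10 were fitted for H3K4me3, 8 called higher in cortex and 1 in gastrocnemius, with a median log2 ratio of 0.79, against 59.5% and 12.3% of all fitted genes and a median of 0.32. By presence of H3K27ac 7 were called more often in cortex and none in gastrocnemius, against 9.24% and 4.54% of genes tested. For H3K27me3, 4 of the 18 were called more often in gastrocnemius by presence and none in cortex, against 13.4% and 10.1%. Of 6 choroid plexus and ependyma markers, Ttr, Folr1, Tmem212 and Ccdc153 had no H3K4me3 peak in cortex, and the sum of the list was 10.1 to 15.5 RPM there and 7.199 to 14.4 in gastrocnemius.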

How the data were processed

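H3K4me3, H3K27ac and H3K27me3 were profiled by ChIP-seq in cortex and gastrocnemius of PSAPP mice. Per the labels, BWA, SAMtools and the mm10 build were used by the authors. Peaks were called with epic2 in each library, on a grid of 200 bp. The deposited files list each peak's ChIPCount, a read count, and a score. The count of each peak was shared evenly along it, summed within 1 kb of each gene start of the GRCm38.p6 RefSeq annotation, rounded, and scaled by reads in autosomal peaks. Peaks were called per library, without input, so reads outside peaks are not known. Depth (2994110 to 27042958 reads in autosomal peaks) may limit what was called, which was not tested. Scores were used only to leave out low-scoring peaks.

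Presence was tested by two-sided Fisher's exact test over genes with a peak in at least 1 library, and reads by edgeR 4.0.16 quasi-likelihood test at genes with a peak in all 19 libraries of the mark, each with Benjamini-Hochberg adjustment over all genes tested and calls below 0.1. DESeq2 1.42.0, limma 3.58.1 on log2(RPM + 1), other scalings, windows, peak sets and library subsets were alternatives. Both tests were tested on simulated data. All 36 members were named, with fold changes only for members with a peak in every library and at most the 6 largest called changes per mark and direction. The members and the 12 marker and programme lists were chosen with earlier results of these data known.

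Mice were paired by the mouse numbers in the deposited names, since the title numbers match mice only for libraries 01 to 04. The correlation of deviations from the tissue means between the tissues of 1 mouse was −0.09 to 0.10. Sex was not analysed here. The columns of strand hold no measurement.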

Additional observations from a re-analysis of the deposited data

Results flagged for a closer look

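Of 146 groups examined (each member in each tissue and mark where every library had a peak, and the read totals), 12 held a library whose gap to its nearest neighbour was large for the range of the group by Dixon's criterion. Chance alone marks about 1 group in 20. Among the totals of reads in autosomal peaks, the H3K27ac cortex library 09 was low at 3903965 against 14279570 for the next, the H3K27ac gastrocnemius library 06 was high at 27042958 against 20977293, and the H3K27me3 gastrocnemius library 05 was high at 18236388 against 7544243. That last library also had the lowest H3K27me3 at Foxf1, 3.66 RPM against 9.91 for the next. The H3K27ac cortex library 09 had the highest H3K27ac at Foxh1, 12.3 RPM against 9.93.

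In cortex library 07, H3K27me3 was highest at Foxj1 (10.04 RPM against 4.93) and at Foxd2 (19.2 RPM against 15.0), and H3K4me3 was lowest at Foxn3 (29.8 RPM against 32.7). For H3K4me3, Foxb2 was highest in cortex library 09 (9.26 RPM against 6.89), Foxd3 highest in gastrocnemius library 07 (13.0 RPM against 10.1) and Foxn2 lowest in gastrocnemius library 06 (28.2 RPM against 42.0). For H3K27ac, Foxm1 was highest in gastrocnemius library 07 (10.7 RPM against 8.03).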

How the results depend on the processing

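Of 126 recomputed member counts, 90 stayed within 1.5 times the reported count and 36 did not, and of 345 recomputed ratios of the members with a printed called ratio 307 kept direction and call, 28 kept direction only and 10 changed sign, all 10 with whole counts of touching peaks. Those were for H3K4me3 Foxj2 −0.19 and Foxm1 −0.03, for H3K27ac Foxj3 −0.50, Foxk2 −0.57, Foxh1 −0.70, Foxc1 0.45 and Foxp1 0.53, and for H3K27me3 Foxf1 −0.06, Foxc2 −0.11 and Foxl1 −0.09. Whole counts put a wide peak's full count at each start it touches, and no other cause was tested for any change below. Among members not called in the reported fit, TMM factors changed the sign of 5 ratios for H3K4me3 (Foxa3, Foxk1, Foxn2, Foxn3 and Foxp4, with Foxn3 then called higher in gastrocnemius), 3 for H3K27ac (Foxk1, then called higher in gastrocnemius, Foxn3 and Foxp4) and 2 for H3K27me3 (Foxn1 and Foxq1).

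For peak presence, the 1 H3K4me3 member called more often in cortex became 0 without the 25% lowest-scoring peaks, without run-number libraries, without the shallowest and deepest libraries, and with the replicate block over 9 mice. The 2 called in gastrocnemius became 1 with a 2.5 kb window, every curated start, or without the shallowest and deepest libraries, and 0 with the block. For H3K27ac in cortex, 2 became 1 with equally many top-scoring peaks and 0 with the block. For H3K27me3 in cortex, 2 became 1 with a 2.5 kb window, without run-number libraries, and with the block. The sign test of the block has little power with 9 mice, so calls lost with it do not show that the tissues were alike.

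For peak reads, no member passed a 2-fold minimum except 4 for H3K4me3 in gastrocnemius, against 6 and 11 (H3K4me3), 7 and 2 (H3K27ac), and 11 and 1 (H3K27me3) in cortex and gastrocnemius. The replicate block left every one of these counts within 1.5 times. For H3K27me3 in cortex the count stayed at 11, but Foxe3 was no longer called and Foxd3 was called instead. Limma gave 10 for H3K4me3 in cortex, 8 for H3K27ac in gastrocnemius, and 17 and 0 for H3K27me3. DESeq2 size factors gave 17 for H3K4me3 in gastrocnemius (against 3561 of 12998 genes) and, like TMM factors, 4 and 7 for H3K27ac. Whole counts and no peak as 0 reads each gave 7 for H3K27ac in gastrocnemius. For H3K27me3 in cortex, equally many top-scoring peaks gave 18, leaving out run-number libraries 0, and leaving out the shallowest and deepest 3, and the 1 called in gastrocnemius (Foxj1) became 0 with every curated start, equally many top-scoring peaks or whole counts. With no peak as 0 reads Foxj1 was not called either, and the 1 member then called was Foxh1.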

Other observations

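Other cell type lists describe what the tissue samples held, by H3K4me3 presence, for which 5.1% of all genes tested were called more often in cortex and 3.58% in gastrocnemius. Of 6 oligodendrocyte genes 4 were called more often in cortex, of 6 microglia and macrophage genes 2, of 6 astrocyte genes 1 and of 6 choroid plexus and ependyma genes 0, and none of these lists had a gene called in gastrocnemius. Of 9 neuron genes 4 were called in cortex, while 6 of 8 muscle fibre genes, 3 of 6 fibroblast genes and 2 of 3 satellite cell genes were called in gastrocnemius, and of 11 endothelium and mural cell genes and 15 cell division genes none was called in either. Of the 18 motile cilium genes 3 were called in cortex. The 3 adipocyte genes had no H3K4me3 peak in any library. Peak reads differed for astrocyte genes: for H3K4me3, of 4 fitted 2 were called higher in each tissue. Over all fitted genes this was 59.5% in cortex and 12.3% in gastrocnemius. For H3K27ac, of 3 fitted 1 was higher in cortex and 2 in gastrocnemius, against 49.3% and 8.52%. By H3K27ac presence, 1 of 5 choroid plexus and ependyma genes tested was called more often in gastrocnemius, against 4.54%.

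H3K27me3 gave a separate view of the muscle lists. Over the 8 muscle fibre genes its sum was 26.0 to 44.5 RPM in cortex and 0 to 8.45 in gastrocnemius, and over the 3 satellite cell genes 28.6 to 40.7 and 6.44 to 15.3.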
